A study of Mus musculus with 80 samples.

Results

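Genes of pre-mRNA splicing were followed through the lung of ageing mice. The members were chosen by name: a gene was taken where at least 1 array spot carried its symbol and no other and that symbol began as those of the SF3a and SF3b, SR (Srsf), Snrp, Prpf, hnRNP, LSm, U2af, Snrnp or numbered Rbm genes do. This gave 88 genes on 131 spots, of 7151 genes with a spot of their own and 16896 spots in all. Each gene is represented by its spot of highest mean over all mice. The rule used no difference between mice. All 88 symbols matched the RefSeq gene table by gene number.

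Introns are removed from a pre-mRNA by the spliceosome, a machine assembled anew on each intron from small nuclear ribonucleoproteins (snRNPs). The U1 snRNP marks the 5′ splice site and the U2 snRNP marks the branch site, after which the U4/U6.U5 tri-snRNP joins and is rearranged into the catalytic form. SR proteins and hnRNPs bind the transcript itself and raise or lower the use of nearby sites. In lung, alternative splicing shapes the transcripts of epithelial, endothelial and immune cells, and the core factors are present in all of them.

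Lung RNA came from 40 C57BL/6 mice with no stated genetic change, 20 of each sex, all fed a regular diet without restriction until they were killed. They fall into 4 age groups of 10 mice: 17 to 44, 169 to 194, 476 to 499 and 704 to 743 days, with 5 males and 5 females in each. RNA of each mouse was hybridised, as 33P-labelled cDNA, to 1 array of each of 2 clone sets, called table A and table B below. A value is a z score, the distance of a spot from the mean of its own array in units of the SD over the 8448 spots of that array, so all changes are relative to the other spots and no fold can be given. The labels make each mouse a separate animal, and p-values measure the spread between mice.

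No 2 arrays held identical values, and the mean correlation of an array with its age group was 0.876 to 0.964 (table A) and 0.918 to 0.969 (table B). Of 10 lung markers only 3 had a spot of their own: Pecam1 and Cdh5 of endothelium lay at the 84.8th and 57th percentile of spots, and the surfactant protein Sftpd at the 48.6th, so the tissue label was checked only in part. For 1 male aged 714 days the title and the description disagree on which mouse it was. Of 6 erythroid genes listed 4 were measured, and their summed z had medians of 6.2, 4.3, 4.85 and 3.43 from the youngest to the oldest group. Of 7 genes listed for B and plasma cells only Cd74, Ighm and Sdc1 were measured. The summed z of these 3 had medians of 2.07, 2.44, 2.84 and 3.7, and they stand for the list only in part. The summed z of 14 proliferation genes had medians of 8.62, 8.7, 8.71 and 8.68. In whole tissue fewer cells of a type and less RNA per cell cannot be told apart, and the part of these lists in the results below was not tested.

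Promoter windows of RefSeq (GRCm38.p6, 250 bases before and 50 after a gene's start) were held for 76 of the 88 genes, with 1 window per gene. The stretches below are the last 120 bases before the start of 4 genes whose array values the results turn on: Snrnp200, the helicase that unwinds U4 from U6, Srsf5 and Srsf11, which are SR proteins, and Prpf31, which holds the tri-snRNP together. They are written 5′ to 3′ along the gene. Capitals mark CCGGAAG, the core that ETS factors bind, and GGGCGG, the GC box, on either strand, and in Srsf5 the last match of each shares 1 base.
Snrnp200 (chr2:127208266-127208385, + strand): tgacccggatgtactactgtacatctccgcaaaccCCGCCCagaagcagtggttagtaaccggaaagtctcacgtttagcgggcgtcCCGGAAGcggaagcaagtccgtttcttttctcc
Srsf5 (chr12:80945379-80945498, + strand): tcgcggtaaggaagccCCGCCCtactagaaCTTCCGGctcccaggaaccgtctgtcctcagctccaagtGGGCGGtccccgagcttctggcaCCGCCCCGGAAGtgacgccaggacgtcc
Srsf11 (chr3:158036607-158036726, − strand): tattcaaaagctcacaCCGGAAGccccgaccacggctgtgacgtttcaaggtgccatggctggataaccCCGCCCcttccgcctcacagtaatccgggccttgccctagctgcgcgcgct
Prpf31 (chr7:3629865-3629984, + strand): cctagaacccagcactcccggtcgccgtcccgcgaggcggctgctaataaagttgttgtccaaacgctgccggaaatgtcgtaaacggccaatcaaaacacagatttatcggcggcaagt
These 4 stretches hold 1, 2, 1 and 0 ETS matches and 1, 3, 1 and 0 GC box matches. Over whole windows of 300 bases, CCGGAAG was present in 22 of 76 members (28.9%), against 9.12% of 27025 RefSeq windows, and GGGCGG in 47 (61.8%), against 35.9%. Those windows cover genes beyond the 7151 with a spot of their own, so these shares have another base than those in the comparisons below. TATAAA was present in 8 (10.5%), against 14.2%. TGACGTCA, bound by CREB, was present in 2 members (2.63% against 1.88%), GCATGCGC, bound by NRF1, in 4 (5.26% against 2.8%), and AAGATGGCG, bound by YY1, in 2 (2.63% against 1.49%). A match describes letters only.

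The first comparison asked whether levels drift with age over all 40 mice. None of the 88 splicing genes passed the test, and their slopes lay on both sides of 0. With limma and Benjamini-Hochberg adjustment over all 16896 spots, 0 of 88 members had an adjusted p under 0.05 (0.028% of all genes did), and the lowest adjusted p of a member was 0.0555. At unadjusted p under 0.05, 5 members had positive slopes (5.68%), against 5.13% of all genes, and 11 had negative slopes (12.5%), against 10.4%. These shares are near those of all genes. The median slope of the members was 0.00149 z per 100 days, and that of all genes was 0.00191, with 47 members above 0 and 41 below.

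**Figure D1:**
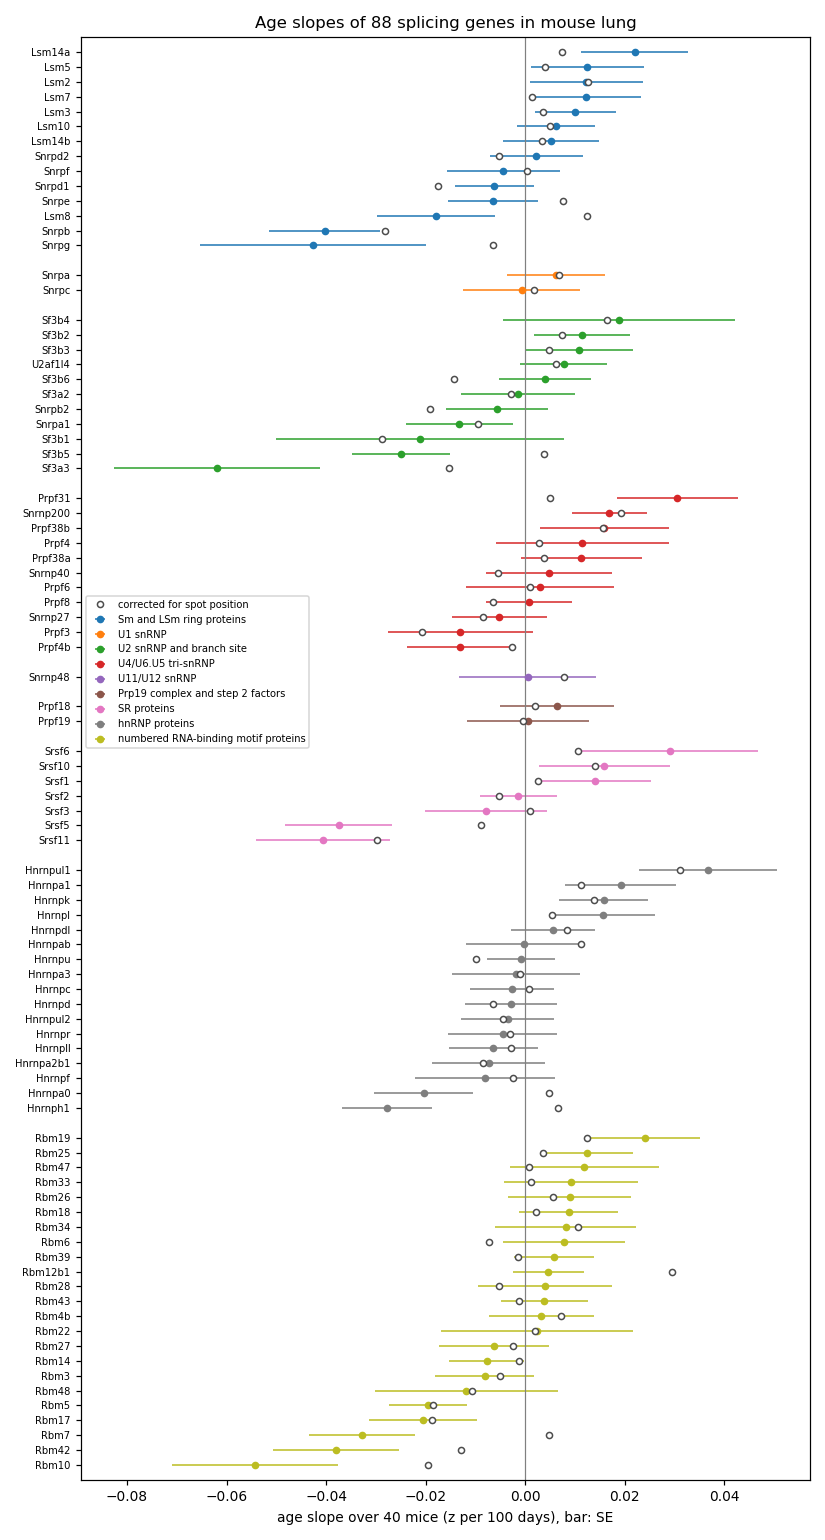
Age slope of each of the 88 splicing genes over 40 mice, in z per 100 days, grouped by role. Filled points with bars are slopes with their SE, open points the slopes after correction for spot position. Slopes run from -0.0619 for Sf3a3 to 0.0367 for Hnrnpul1, and many of the outlying filled points have open points nearer 0.

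The settings bear on this count. With array weights 10 members had negative slopes and 2 positive slopes at adjusted p under 0.05, against 8.15% and 1.69% of all genes. With log2 of age in place of age, which gives the youngest mice more room on the axis, 9 members fell (10.2%, against 7.61% of all genes) and 0 rose (1.4% of all genes did). Those 9 were Snrpb, Srsf5, Srsf11, Rbm5, Rbm7, Rbm10, Rbm42, Hnrnph1 and Sf3a3.

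Spot position moved with these slopes. The titles also number the mice, and an earlier analysis saw the arrays divide at number 46, into 27 earlier and 13 later mice, a division that no label calls a batch. Numbered in order, the spots fall into 16 blocks, each with 24 lines of 22 columns (an arrangement that an earlier analysis of these data found), and spots of 1 block and column deviate together on an array. Across the 88 members, the slope of a member and the median slope of the other 23 spots of its block and column had Pearson's r = 0.758, a description over genes that share arrays. After subtraction, on each array, of the median deviation of that block and column, 1 member had an adjusted p under 0.05 (0.154% of all genes did), and 3 members had positive and 6 negative slopes at unadjusted p under 0.05, against 4.89% and 7.45% of all genes. With log2 of age and this correction together, 4 members passed, against 4.42% of all genes. These were Snrpb at -0.0491 and Srsf11 at -0.0535 z per doubling of age, and Snrnp200 at 0.0266 and Rbm12b1 at 0.053. With log2 of age alone Snrpb and Srsf11 were at -0.069 and -0.0727. Snrnp200 was at 0.0236 and Rbm12b1 at 0.00884 there (limma adjusted p = 0.234 and 0.752), so the value of Rbm12b1 rests mostly on the correction.

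**Figure D2:**
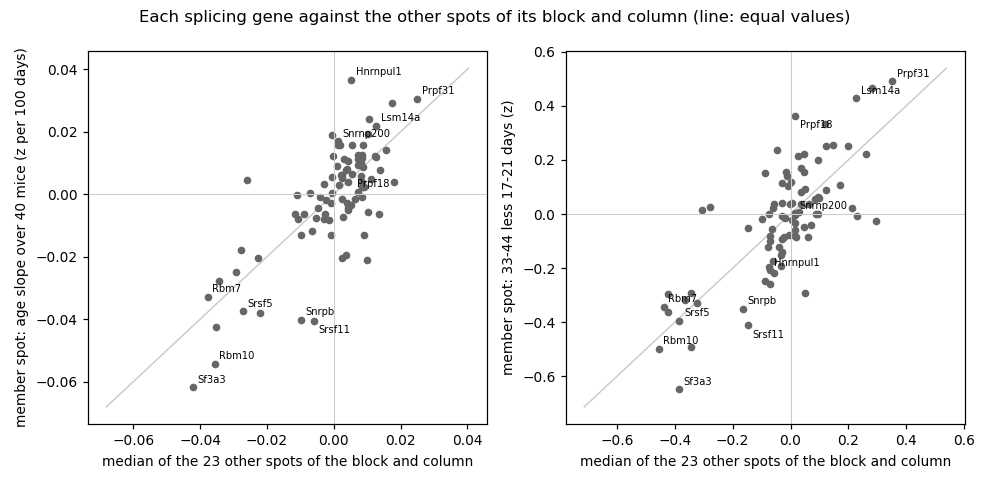
Each of the 88 splicing genes (y axis, z per 100 days on the left, z on the right) against the median of the 23 other spots of its block and column (x axis, same units), for the age slope and for the difference within the youngest mice. The line marks equal values. On the left Prpf31, Srsf5 and Rbm7 lie near it, while Snrpb, Srsf11 and Hnrnpul1 lie away from it. Rbm10 lies below the line on the left, at -0.0543 against -0.0357, and near it on the right, at -0.498 against -0.456.

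Among the 14 Sm and LSm genes, most of whose proteins form rings around the snRNAs, Snrpb had the smallest p of all members. It encodes SmB, a subunit of the Sm ring. At 17 to 44 days Snrpb ran from 0.63 to 1.8 with a median of 0.9. At 169 to 194 days it ran from 0.58 to 1.02 with a median of 0.785, at 476 to 499 days from 0.53 to 0.88 with a median of 0.68, and at 704 to 743 days from 0.45 to 0.8 with a median of 0.655. Medians were lower in each later group and the groups overlapped. The slope was -0.0403 z per 100 days (SE 0.0112, limma adjusted p = 0.0555), and -0.0281 after the position correction (adjusted p = 0.164). It was -0.0308 in males and -0.0499 in females. The highest mouse, at 1.8, was the female of 17 days, and without that mouse the slope was -0.029 (adjusted p = 0.14). In the 30 mice of 169 days or older Snrpb still had a slope of -0.0247 (SE 0.0103, adjusted p = 1).

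The other Sm genes had slopes between -0.0426 for Snrpg (SE 0.0227) and 0.00224 for Snrpd2, none at unadjusted p under 0.05. After the position correction Snrpd1 had a slope of -0.0176 (adjusted p = 0.301). The members of the LSm ring that binds U6, Lsm2, Lsm3, Lsm5, Lsm7 and Lsm8, had slopes from -0.0179 to 0.0125, none at unadjusted p under 0.05. Lsm14a, a P-body protein of translational repression rather than of the spliceosome, had a slope of 0.022 (SE 0.0107, adjusted p = 0.346), and its other spots had slopes of 0.0108 and 0.0112. Its median was 0.745 at 17 to 44 days, with a range from 0.43 to 1.21, and 0.88 at 704 to 743 days, with a range from 0.83 to 1.5. After the position correction the slope of Lsm14a was 0.00733.

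The 2 genes of the U1 snRNP, Snrpa and Snrpc, had slopes of 0.00626 (SE 0.00986) and -0.000737 (SE 0.0117). Snrpa ran from -1.69 to -1.06 at 17 to 44 days and from -1.64 to -1.14 at 704 to 743 days, ranges that nearly coincide. Snrpc ran from 1.14 to 1.6 in the youngest group and from 1.07 to 1.68 in the oldest. These Snrpc values are those of 1 of its 2 spots. The other Snrpc spot had a slope of 0.0226, of the opposite sign. In the comparison within the youngest mice given below, that other spot was higher in the older mice by 0.451 z. The first spot was higher by 0.0375 z, and neither passed the test there.

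Of 11 genes of the U2 snRNP and branch site recognition, 2 had slopes at unadjusted p under 0.05, both negative (10.4% of all genes). After the position correction 0 did. Sf3a3, a subunit of the SF3a complex, had the lowest slope of all members, -0.0619 z per 100 days (SE 0.0207, adjusted p = 0.11). Its medians were -0.305, -0.515, -0.555 and -0.625 from the youngest group to the oldest, and its ranges, from -0.84 to 0.45 in the youngest and from -1.23 to -0.18 in the oldest, overlapped. After the position correction the slope was -0.0153 (adjusted p = 0.759), and the other 23 spots of its block and column had a median slope of -0.0421. Sf3b5, a small subunit of SF3b, had a slope of -0.025 (SE 0.0098, adjusted p = 0.197), which turned to 0.0037 after the correction. Sf3b1, the large SF3b subunit that clasps the branch site, had the widest spread within groups of all members, with a pooled SD of 0.54 z against a median of 0.192 over members and 0.188 over all genes. Its slope of -0.0212 had an SE of 0.0289.

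Of 11 tri-snRNP genes, 2 had positive slopes at unadjusted p under 0.05 and 0 negative, against 5.13% and 10.4% of all genes. After the position correction these counts were 1 and 0. Snrnp200, whose promoter stretch is shown above, ran from 0.05 to 0.36 at 17 to 44 days with a median of 0.21, and from 0.07 to 0.4 at 169 to 194 days with a median of 0.24. It ran from 0.19 to 0.49 at 476 to 499 days with a median of 0.28, and from 0.1 to 0.67 at 704 to 743 days with a median of 0.3. Medians were higher in each later group and the ranges overlapped. The slope of Snrnp200 was 0.0169 z per 100 days (SE 0.0075, adjusted p = 0.28), 0.0163 in males and 0.0176 in females. After the position correction it was 0.0193 (SE 0.00418, limma adjusted p = 0.0356), the only one of the 88 members that passed there. The correction by column alone, without blocks, gave 0.00849 (adjusted p = 0.66). Within the 27 mice with title numbers under 46 the uncorrected slope was 0.00727, and within the other 13 it was 0.0251.

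Prpf31 had medians of 1.51, 1.67, 1.715 and 1.715 across the age groups, with a range from 1.25 to 2.04 in the youngest and from 1.62 to 2.23 in the oldest. The slope of this spot was 0.0306 (SE 0.0121, adjusted p = 0.202), and 0.00504 after the position correction. A second Prpf31 spot, in another column, had a slope of -0.0192 (adjusted p = 0.54), and 0.0128 after the correction. The 2 spots thus had opposite signs before the correction and the same sign after it. Prpf8, the scaffold of the catalytic centre, had a slope of 0.00073 (SE 0.00869), and Prpf6, which bridges the U5 and U4/U6 parts, 0.00297 (SE 0.0148). Prpf3 and Prpf4, partners on U4/U6, had slopes of -0.013 and 0.0115, with SEs of 0.0146 and 0.0173.

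The single measured gene of the minor, U12-type spliceosome, Snrnp48, had a slope of 0.00051 (SE 0.0138). Prpf19, a ubiquitin ligase of the activated spliceosome, had 0.000543 (SE 0.0122), and Prpf18, a factor of the second catalytic step, 0.00636 (SE 0.0115).

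Of 7 SR protein genes, 2 had negative slopes at unadjusted p under 0.05, against 10.4% of all genes, and 1 did after the position correction. Srsf5 ran from 0.98 to 1.62 at 17 to 44 days with a median of 1.37, and from 0.86 to 1.4 at 169 to 194 days with a median of 1.185. It ran from 0.94 to 1.5 at 476 to 499 days with a median of 1.145, and from 0.82 to 1.26 at 704 to 743 days with a median of 0.975. Its medians were lower in each later group and the ranges overlapped. The slope of Srsf5 was -0.0375 (SE 0.0108, adjusted p = 0.0636), and -0.00881 (adjusted p = 0.536) after the position correction. The other 23 spots of its block and column had a median slope of -0.0273, and 21 of them were also negative.

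Srsf11 had medians of 1.74, 1.405, 1.49 and 1.315, with ranges from 1.36 to 2.01 in the youngest group and from 1.11 to 1.65 in the oldest, which overlapped. Its slope was -0.0406 (SE 0.0135, adjusted p = 0.107), and -0.0298 (adjusted p = 0.211) after the position correction. The other 23 spots of its block and column had a median slope of -0.00598. Its 2 further spots, on table A, had slopes of -0.0123 (adjusted p = 0.682) and 0.00815 (adjusted p = 0.794). Srsf6, Srsf10 and Srsf1 had slopes of 0.0291 (SE 0.0177), 0.0159 (SE 0.0132) and 0.0141 (SE 0.0111), and Srsf2 and Srsf3 -0.00139 (SE 0.0077) and -0.00782 (SE 0.0123).

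**Figure D3:**
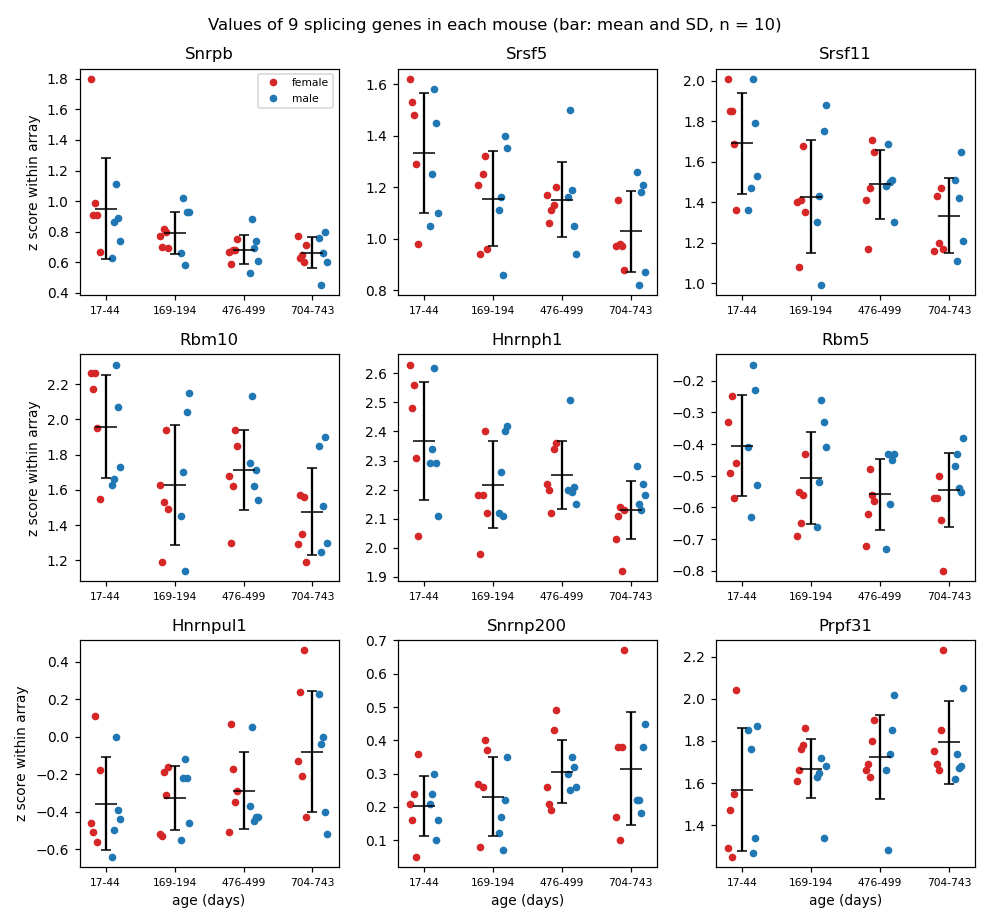
Values of 9 splicing genes in each mouse (y axis, z score within the array) by age group in days (x axis), females in red and males in blue, with the mean and SD of 10 mice in black. The groups overlap in every panel. Snrpb, Srsf5 and Rbm10 are highest at 17 to 44 days, and Hnrnpul1 spreads upward at 704 to 743 days, to 0.46.

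Of 17 hnRNP genes, 1 had a positive and 2 negative slopes at unadjusted p under 0.05, against 5.13% and 10.4% of all genes. After the position correction these counts were 1 and 0. Hnrnpul1, a relative of the nuclear scaffold protein hnRNP U, had medians of -0.45, -0.265, -0.36 and -0.085. Its range was -0.64 to 0.11 at 17 to 44 days and -0.52 to 0.46 at 704 to 743 days, so the oldest mice reached higher while the lowest of them lay within the range of the youngest. The slope of Hnrnpul1 was 0.0367 (SE 0.0139, adjusted p = 0.174) and 0.0311 (adjusted p = 0.245) after the position correction. It was 0.0292 in males and 0.0442 in females. It was also positive over the 30 older mice, at 0.0453 (SE 0.0194, adjusted p = 1).

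Hnrnph1, which binds runs of G, had medians of 2.325, 2.18, 2.205 and 2.135, and a slope of -0.0277 (SE 0.00903, adjusted p = 0.101). Hnrnpa0 had medians of 0.505, 0.41, 0.435 and 0.305 and a slope of -0.0204 (SE 0.00998, adjusted p = 0.352). The position correction turned both, to 0.0066 and 0.00477. Hnrnpu had the smallest spread within groups of all members, with a pooled SD of 0.114 z, and its slope was -0.000791 (SE 0.00685). Hnrnpc, which binds runs of U, had -0.00265 (SE 0.00848), and the remaining 12 hnRNP genes had slopes between -0.00804 and 0.0192, none at unadjusted p under 0.05.

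The 23 numbered RBM genes share an RNA-binding motif and are not all splicing factors. Of them 1 had a positive and 4 negative slopes at unadjusted p under 0.05, against 5.13% and 10.4% of all genes. After the position correction these counts were 1 and 3. Rbm5 and Rbm10 are related regulators of alternative exons. Rbm10 had medians of 2.01, 1.58, 1.695 and 1.43 and ranges from 1.55 to 2.31 in the youngest mice and from 1.19 to 1.9 in the oldest, which overlapped. Its slope was -0.0543 (SE 0.0166, adjusted p = 0.0757), and -0.0196 (adjusted p = 0.227) after the position correction, while the other 23 spots of its block and column had a median slope of -0.0357. Rbm5 had medians of -0.435, -0.535, -0.57 and -0.545 and a slope of -0.0195 (SE 0.00784, adjusted p = 0.213), which was -0.0186 (adjusted p = 0.312) after the correction. The other spots of its block and column had a median slope of 0.0036.

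Rbm7, a subunit of the complex that hands nuclear transcripts to the exosome, had a slope of -0.0328 (SE 0.0106, adjusted p = 0.0954), which turned to 0.00488 after the correction. Its 2 further spots had slopes of 0.0189 (adjusted p = 0.243) and 0.000976 (adjusted p = 0.975). Rbm42, which binds hnRNP K, had -0.038 (SE 0.0126, adjusted p = 0.109), and -0.0128 (adjusted p = 0.394) after the correction. Rbm19, a factor of ribosome assembly, had 0.024 (SE 0.0111, adjusted p = 0.312), and 0.0125 after the correction. Rbm12b1 had 0.00461 (SE 0.00714), and 0.0295 (SE 0.00932, adjusted p = 0.138) after it. The other 23 spots of its block and column had a median slope of -0.026, and 1 of them shared its sign. Its pooled SD within groups was 0.116 z before the correction and 0.154 z after it.

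Several genes had more than 1 spot, which gives a second reading of the same mice. Of 27 such genes, 9 had slopes of 1 sign in all their spots, and 9 did after the position correction. Lsm14a, Sf3b2 and Rbm39 were among those with 3 spots of 1 sign, with slopes from 0.0108 to 0.022, from 0.00142 to 0.0114 and from 0.00579 to 0.0181. Rbm25, with 5 spots, ran from -0.0128 to 0.0364, and Srsf10, also with 5, from -0.00772 to 0.0186.

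By their labels the youngest animals divide into 5 aged 17 to 21 days and 5 aged 33 to 44 days, around weaning and after it. There 9 of the 88 members passed the test. From 17 to 21 days to 33 to 44 days 3 rose (3.41%), against 1.86% of all genes, and 6 fell (6.82%), against 7.34%. Those that rose were Prpf31, Lsm14a and Prpf18, and those that fell were Rbm10, Srsf5, Rbm42, Srsf11, Sf3a3 and Rbm7.

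Srsf5 was 1.62, 1.53, 1.58, 1.48 and 1.45 in the mice of 17 to 21 days, and 1.05, 1.25, 1.29, 1.1 and 0.98 in those of 33 to 44 days. Every younger mouse was above every older one, and the difference was -0.395 z (SE 0.0831, limma adjusted p = 0.0177). Rbm10 was 2.26, 2.17, 2.31, 2.26 and 2.07 in the younger mice and 1.63, 1.66, 1.95, 1.73 and 1.55 in the older. These did not overlap either, and the difference was -0.498 z (SE 0.0893, limma adjusted p = 0.0152). Srsf11 was 2.01, 1.85, 2.01, 1.85 and 1.79 against 1.36, 1.47, 1.69, 1.53 and 1.36, again without overlap, with a difference of -0.412 z (SE 0.0879, limma adjusted p = 0.0185). A second Srsf11 spot passed too, at -0.439 z (limma adjusted p = 0.0293), and the third did not, at -0.0125 z (adjusted p = 0.975).

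Rbm42 was 1.59, 1.36, 1.55, 1.45 and 1.38 against 0.92, 1.16, 1.21, 0.86 and 0.73, a difference of -0.491 z (SE 0.104, limma adjusted p = 0.0185). Sf3a3 was -0.14, -0.27, 0.39, 0.45 and -0.06 against -0.84, -0.55, -0.34, -0.43 and -0.68, a difference of -0.648 z (SE 0.153, limma adjusted p = 0.0228). Rbm7 was 1.79, 1.59, 1.79, 1.69 and 1.58 against 1.27, 1.27, 1.47, 1.4 and 1.28, a difference of -0.343 z (SE 0.0799, limma adjusted p = 0.0249), while its further spots gave 0.187 and -0.03 z. In these 3 genes too the age classes did not overlap. The called genes were picked for their difference in these same mice, so lack of overlap is no added support. Hnrnpa0, Lsm8 and Rbm28, which were not called, did not overlap either, and the share over all genes was not counted.

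Prpf31 was 1.29, 1.47, 1.27, 1.25 and 1.34 at 17 to 21 days and 1.85, 1.76, 1.55, 1.87 and 2.04 at 33 to 44 days, a difference of 0.49 z (SE 0.0963, limma adjusted p = 0.0156) with no overlap. Its second spot gave -0.356 z (limma adjusted p = 0.0581), the opposite sign, and the mean of both spots gave 0.0671 z (limma adjusted p = 0.658). Lsm14a was 0.43, 0.71, 0.55, 0.54 and 0.68 against 1.19, 0.99, 0.78, 0.93 and 1.21, a difference of 0.428 z (SE 0.0996, limma adjusted p = 0.0249), and its further spots gave 0.0467 and 0.0758 z. Prpf18 was 0.31, 0.26, 0.15, 0.19 and 0.43 against 0.74, 0.38, 0.56, 0.81 and 0.69. Its difference was 0.362 z (SE 0.0968, limma adjusted p = 0.0405), and its classes overlapped, since the older mouse at 0.38 lay below the younger at 0.43.

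**Figure D4:**
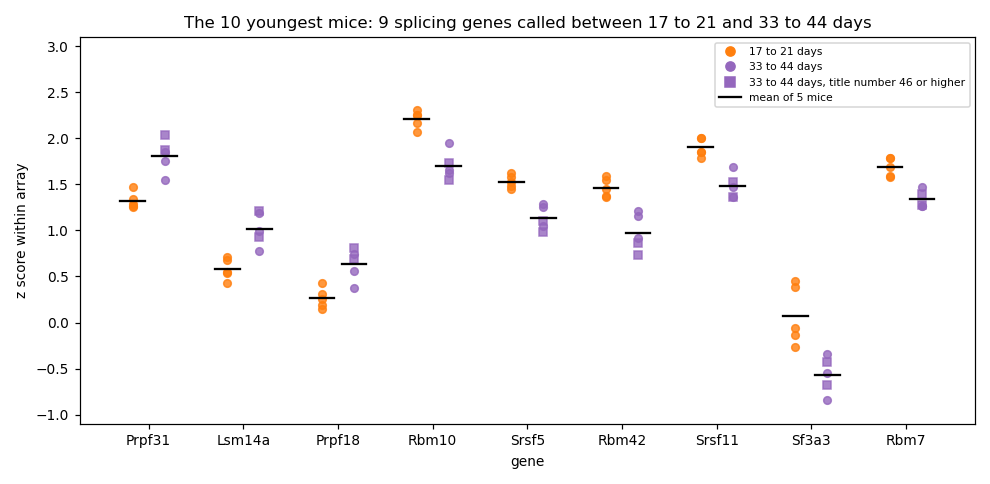
Values of the 9 splicing genes that passed the test within the youngest mice (y axis, z score within the array), for 5 animals aged 17 to 21 days and 5 aged 33 to 44. Squares are the 2 older mice with title numbers of 46 or higher, and black lines are means of 5 mice. Only Prpf18 overlaps between the age classes, and the 9 were picked for their difference in these same mice.

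Array position and title number moved with this comparison as well. Across the members, the difference and the median difference of the 23 neighbouring spots had Pearson's r = 0.756. For Srsf5 that median was -0.384 z, for Rbm10 -0.456, for Rbm7 -0.439 and for Prpf31 0.351, while for Srsf11 it was -0.147 and for Prpf18 0.0158. After the position correction limma called 0 members and 0 of all 16896 spots, with 12 members higher (13.6%, against 7.37% of all genes) and 6 lower (6.82%, against 9.4%) at unadjusted p under 0.05. Among the 9 genes, Srsf11, at -0.292 z (limma adjusted p = 0.0618), and Prpf18, at 0.298 z (limma adjusted p = 0.0789), kept the greatest parts of their differences. Of the mice of 33 to 44 days, 2 have title numbers of 46 or higher and none of those of 17 to 21 days does. Among the 8 mice with lower title numbers limma called 0 members, with 6 higher (6.82%, against 7.06% of all genes) and 14 lower (15.9%, against 11.5%) at unadjusted p under 0.05. There Srsf5 was at -0.317 z and Rbm10 at -0.431 z (limma adjusted p = 0.124 and 0.116). Sf3a3, Rbm42, Srsf11 and Rbm7 were at -0.643, -0.353, -0.369 and -0.331 z. Prpf31, Lsm14a and Prpf18 were at 0.377, 0.366 and 0.286 z, so all 9 kept their sign. This fit has fewer mice, and what that did to the calls was not tested. With title number as a covariate over all the youngest mice, only Prpf18 of the 9 lost its call. Without the male of 19 days, or without the female of 33 days, 0 members passed. There were 3 calls without the female of 17 days, 5 without the female of 21 days and 16 without the female of 40 days. With 1 mouse left out the shares over all genes were not counted, so these counts cannot be set against them. The summed z of the erythroid genes was 6.66 to 8.52 at 17 to 21 days and 3.67 to 5.75 at 33 to 44 days, with no overlap. That of the B and plasma cell genes was 1.56 to 2.02 and 2.12 to 2.44, also with no overlap, and that of the proliferation genes was 7.32 to 9.39 and 7.87 to 9.28. The part of these lists in the differences was not tested.

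The step from 17 to 44 days to 169 to 194 days passed for 0 of 88 members with limma (0% of all genes), with 1 positive and 5 negative differences at unadjusted p under 0.05, against 1.29% and 5.96% of all genes. The negative ones were Rbm10 at -0.333 z (SE 0.123), Srsf11 at -0.265 (SE 0.101), Rbm7 at -0.197 (SE 0.0808), Srsf5 at -0.177 (SE 0.0843) and Hnrnph1 at -0.15 (SE 0.0681). All of them share the young mice with the comparison above. With the mice of 33 to 44 days alone as the young group, Srsf5 and Hnrnph1 were at 0.0218 and 0.00617 z, and Rbm10, Srsf11 and Rbm7 at -0.0857, -0.0622 and -0.0282 z (limma adjusted p = 1 for each). The positive one was Rbm22, which contacts the U6 snRNA in the catalytic core, at 0.345 z (SE 0.143, adjusted p = 0.819). Its median went from -1.205 to -1.105, and 2 mice of 194 days, at 0.21 and -0.19, stood above the others of their group.

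Among adults no splicing gene passed the test in either comparison run. Between the groups of 169 to 194 and 704 to 743 days, limma called 0 members (0.014% of all genes), and 1 had a positive and 0 a negative difference at unadjusted p under 0.05, against 1.22% and 1.09% of all genes. That was Hnrnpul1, at 0.248 z (SE 0.109, adjusted p = 0.999). The slope over the 30 adults was called for 0 members (0% of all genes), with Hnrnpul1 positive and Snrpb negative at unadjusted p under 0.05, against 0.993% and 1.59% of all genes.

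The sexes were compared over all ages. For male less female limma called 0 members (0% of all genes), and at unadjusted p under 0.05 there was 1 positive and 0 negative difference, against 0.559% and 0.909% of all genes. Rbm5 was higher in males by 0.0945 z (SE 0.0431, adjusted p = 1), and by 0.0734 z (adjusted p = 1) after the position correction. The age slope differed between sexes in 0 members by limma's adjusted p (0% of all genes) and in 0 at unadjusted p under 0.05, against 0.601% of all genes with a greater slope in males and 1.23% with a greater slope in females.

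Other splicing genes that the name rule does not reach were set beside the members. Of 100 listed, 76 were measured, and in the age slope over 40 mice limma called 0 of them. At unadjusted p under 0.05, 5 of the 76 had positive and 9 negative slopes, against 5.13% and 10.4% of all genes. The median slope of these genes was 0.00143 z per 100 days. With log2 of age 1 of them rose and 6 fell, beside the shares of all genes given above for that setting. The smallest p values were those of Esrp1, the epithelial splicing regulator, at -0.111 (SE 0.0265, adjusted p = 0.0537), and of Syf2, a subunit of the activated spliceosome, at -0.0881 (SE 0.0243, adjusted p = 0.0537). Raly, an hnRNP-like protein, was at -0.0425 (adjusted p = 0.0958), and Tia1, which promotes weak 5′ splice sites, at -0.0629 (adjusted p = 0.0962). After the position correction Esrp1 and Tia1 were at -0.0873 and -0.066, Syf2 at -0.0415 and Raly at -0.00681. Within the youngest mice 2 of the 76 rose and 6 fell, against 1.86% and 7.34% of all genes. Among those that fell was Esrp1, at -0.952 z (SE 0.158, limma adjusted p = 0.0117). That difference was -0.797 z after the correction, where no spot passed.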

How the data were processed

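Lung was homogenised by bead beating, RNA was purified on RNeasy columns and reverse transcribed with 33P-dCTP, per the labels' protocols. The values deposited by the authors are z scores, with mean 0 and SD 1 on each array, and array medians from -0.11 to 0.02. What lies under this score (its scale, log base, background correction and filters) is not given in the sources used here. No background measure was used, so the number of arrays sets the precision.

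Of 16896 spots, 9663 had 1 gene symbol in the platform annotation, 436 several and 6797 none. Spots with several symbols were not named, 8 of which list a member. The members and lists were chosen with earlier results of these data known. The models were two-sided fits with lmFit and eBayes of limma 3.58.1 (R 4.3.3), 1 per table, with sex or the age and sex group as terms, with Benjamini-Hochberg adjustment over both tables' spots and a threshold of 0.05. Shares of all genes count 1 spot per gene. Genes named were those past the threshold in any comparison, up to 12 per direction with the smallest p in the slope over 40 mice and the same sign in both sexes, up to 5 per direction elsewhere, 2 per role and those with 3 or more spots. Rbm12b1, Snrpg, Snrpd1, Sf3b1 and other genes given beside a role group were named after their values were seen. Alternatives were quantile normalization, a filter on dim spots, variance and array weight settings, spot position, title number, other sets of mice, all spots of a gene, log2 of age, and, chosen after seeing the data, log2 of age with spot position and rounds of title numbers as a block. Fits were tested on simulated data. Promoters are from RefSeq. Figures used matplotlib 3.10.9 in Python 3.11.15.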

Additional observations from a re-analysis of the deposited data

Results flagged for a closer look

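Among 32 named genes, the values of each group of 10 mice were examined for a mouse far from the others. This picked out 12 of 128 groups. By chance the rule picks out about 1 in 20 groups of like animals. The 32 genes share the same mice, so the 128 groups are not independent and the count cannot be tested against that share. At 17 to 44 days female 1 had Snrpb at 1.8, with the nearest mouse at 1.11, and Snrnp48 at -0.13, with the nearest at 0.6. At 169 to 194 days male 3 had Snrnp48 at 0.14 and Hnrnpu at -0.28, and male 4 had Prpf31 at 1.34. At 476 to 499 days male 2 had Prpf31 at 1.28, Srsf5 at 1.5 and Hnrnpl at -0.18, female 2 had Sf3b2 at 1.26, and female 4 had Rbm22 at -0.26. At 704 to 743 days female 5 had Lsm14a at 1.5, with the nearest mouse at 1.05, and Hnrnpl at 0.91, with the nearest at 0.38. Male 2 of 476 to 499 days appears for 3 genes, and female 1 of 17 to 44 days, male 3 of 169 to 194 days and female 5 of 704 to 743 days for 2 each.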

How the results depend on the processing

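The counts of members called stayed at 0 under all alternatives run for the adult slope, both steps between age groups, the sexes and the interaction. For the slope over 40 mice the count of 0 became 3 without the dimmest 33.3% of spots, 12 with array weights, 1 with the block and column correction alone or with later title numbers as a block, 9 with log2 of age, and 4 with log2 of age and position. It ran from 0 to 5 with 1 mouse left out: 5 without male 3 of 169 to 194 days or female 5 of 17 to 44 days, 3 without male 1 of 17 to 44, female 2 of 169 to 194, male 2 of 476 to 499, or male 1 or 4 of 704 to 743 days, 2 without male 5 of 17 to 44 or female 5 of 169 to 194 days, and 1 without male 1 of 169 to 194 days. The 11 negative slopes at unadjusted p under 0.05 became 6 with either position correction, 1 in the later mice and 7 with log2 of age and position, and ran from 10 to 12 with 1 mouse left out. The 5 positive slopes became 3 with quantile normalization, the block and column correction, title number as a covariate, the earlier or the later mice alone, or without 2 mice that stand apart on table A, and ran from 2 to 7 with 1 mouse left out, with 2 without female 5 of 704 to 743 days and 3 without male 3 or 4 or female 1, 3 or 4 of 17 to 44 days or male 5 of 704 to 743 days. The 9 calls within the youngest mice became 14 without dim spots, 3 with the column correction and 0 with the block and column correction, with later title numbers as a block, with both, or among the earlier mice, and ran from 0 to 16 with 1 mouse left out. The later mice alone gave no value there. Shares over all genes are given above where they were counted, and for the other settings they were not counted. Some of the 9 genes lost their call in further settings. With quantile normalization these were Rbm7, Srsf11 and Prpf18, and with the mean of all spots Lsm14a, Prpf31 and Rbm7. Prpf18 also lost its call with array weights or with title number as a covariate. The cause was not tested.

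Signs turned in these cases. With the block and column correction the slopes of Rbm7, Hnrnph1, Sf3b5 and Hnrnpa0 were 0.00488, 0.0066, 0.0037 and 0.00477, and with title numbers as well those of Hnrnph1, Sf3b5 and Hnrnpa0 were 0.00564, 0.00446 and 0.000993. With the column correction the slopes of Srsf5, Rbm7, Rbm42 and Hnrnpa0 were 0.0015, 0.00622, 0.000993 and 0.0186, and in the later mice that of Hnrnpa0 was 0.00395. In the first age step the later mice gave -0.02 for Rbm22, 0.292 for Rbm10, 0.252 for Srsf11, 0.18 for Rbm7, 0.265 for Hnrnph1 and 0.205 for Srsf5. The later mice hold only 2 of the youngest group, aged 33 and 40 days, and none aged 17 to 21 days. Title number and the missing age class were not tested apart there. In the same age step the block and column correction gave Rbm7 0.0268 and Hnrnph1 0.02, or 0.00472 and 0.0164 with title numbers. The column correction gave Srsf5 0.0159 there, and 33 to 44 days alone as the young group gave 0.00617 for Hnrnph1 and 0.0218 for Srsf5. Within the youngest mice Rbm7 was 0.0801 and 0.046 under the block and column and the column correction, and Srsf6 was -0.0306 with position and title numbers together.

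The labels give no replicate numbers, but the title numbers run in 5 rounds of 8 mice, each with 1 mouse of every age and sex group. Of 140 pairs of mice of 1 round, deviations from the group means correlated above 0.1 in 71 (table A) and 95 (table B). The lowest were -0.453 and -0.547. Mean r was 0.0922 within a round against -0.0214 across rounds and groups on table A, and 0.231 against -0.0531 on table B. Mice of 1 round thus shared variation on average, unevenly between pairs, and the main fits did not include the round. A fit with the round as a replicate block was added after seeing the data. In it 2 members were called in the slope over 40 mice, Snrpb and Srsf5 (limma adjusted p = 0.0482 and 0.0456), and 0 within the youngest mice. The share over all genes was not counted in that fit, so the 2 calls cannot be set against it. Among mice of other groups, 22 of 40 mice correlated best with one of their own round, on either table.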
